A study of Sus scrofa with 12 samples.

Results

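SUPT6H, PIGA, PEX16, PLCD4, MOSPD3, SAR1B and GPRC5C are 7 of the 15011 annotated pig genes with an assembled transcript in these data. They were chosen because each has a spliced isoform, absent from the annotation, that was assembled mainly in pigs of 1 of the 2 groups compared. For each gene, the transcripts of every pig were matched by identical intron chain, that is by the same start and end of every intron in order. A chain was called new when it shares an intron with an annotated transcript of the gene but is neither an annotated chain nor an unbroken part of one. Of 1463 new isoforms listed in at least 6 pigs, 7 are described, 1 from each gene. The genes were chosen by the FPKM of these isoforms in H against L, so the differences between the groups below are a description and carry no test.

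The RNA came from the longissimus dorsi, the long back muscle, of 12 castrated male Iberian pigs that finished on acorns and grass outdoors, taken as 1 library per pig. The 6 H pigs had high and the 6 L pigs low estimated breeding values for intramuscular fat, and the sample labels give the fat measured in the muscle as 10.6 to 13.8% in H and 1.70 to 2.28% in L. The text of the study describes the fat of L differently, and these percentages enter no test. The groups are the extremes of a population, so everything else that differs between the chosen pigs cannot be told apart from fat content. A chain that was not assembled in a pig has no entry for it and was set to 0, which is not the same as a measured absence. Values are FPKM, fragments scaled by transcript length and by the mapped fragments of the library, scaled between libraries.

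Splicing removes introns from the first copy of a gene and joins the exons, and a gene can give several isoforms by starting at another first exon, by leaving an exon out, or by using another splice site. Most introns begin with GT and end with AG on the strand that is transcribed, and a small share begin with GC. Short reads show single junctions, and a program then has to link junctions into whole transcripts, so a gap in coverage can split 1 transcript into pieces.

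**Figure D1:**
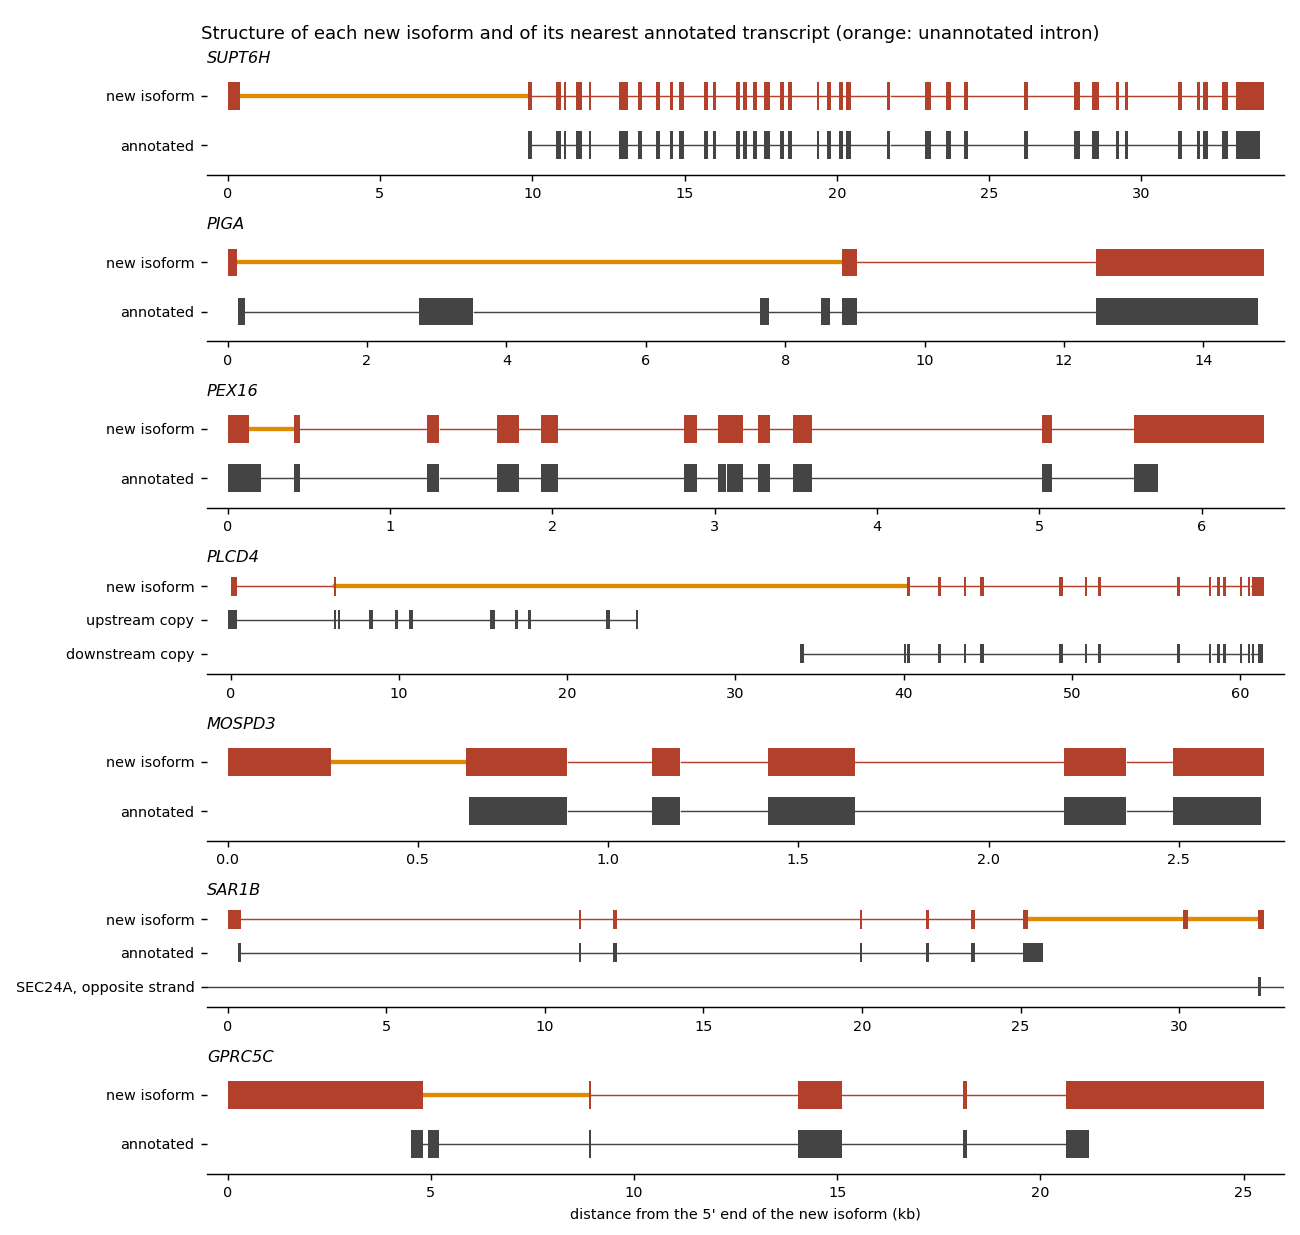
Structure of the 7 new isoforms (red) and of their nearest annotated transcripts (grey), with boxes for exons, thin lines for introns and a thick orange line for introns that no annotated transcript has. The x axis is the distance in kb from the 5′ end of the new isoform, drawn to the outermost ends over all pigs. As assembled, the chains of SUPT6H and MOSPD3 have an extra first exon, those of PIGA and GPRC5C leave exons out, and that of PEX16 has another end of its first exon. The chain of PLCD4 joins 2 neighbouring copies, over a junction of the same sequence as the annotated junction within each copy. That of SAR1B runs past its annotated end to an exon of SEC24A on the opposite strand. The last intron of this chain does not have GT and AG on the SAR1B strand.

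Coverage times length, summed over the assembled transcripts, came to 9.88 to 17.6 gigabases per library. One FPKM corresponded to 7.51 to 11.6 reads of coverage per base in H and to 8.40 to 11.3 in L, with no difference between the groups found by an exact permutation test (two-sided, p = 0.903, n = 6 per group). Assembled transcripts numbered 35094 in H5, 37010 to 44609 in the other H pigs and 30535 to 36061 in L. Whether this bears on the matching of whole chains was not tested. The label of the tissue was checked on 8 skeletal muscle genes. Of these 6 were listed, with a summed level of 27040 to 40373 FPKM in H and 27960 to 36626 in L, while ACTA1 and MB, the skeletal actin and myoglobin, had no transcript assigned. All 6 genes of an adipocyte list had a log2 difference above 0, and their summed level was 29.5 to 135 FPKM in H and 17.03 to 74.0 in L. None of the 6 passed the adjusted threshold in limma. The log2 difference was also above 0 for all tested markers of endothelial cells (5), erythroid cells (3), macrophages (3), smooth muscle and pericytes (4) and Schwann cells (1) and for 4 of 5 of fibroblasts, with 0 called. The summed levels overlapped between the groups in each list, for example at 48.6 to 116 FPKM in H and 34.4 to 94.4 in L for endothelial and at 85.4 to 299 and 73.1 to 161 for erythroid markers. In whole muscle, fewer cells of a type and less RNA per cell cannot be told apart, and the part of these cell types in the values below was not tested.

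PLCD4, phospholipase C delta 4, cleaves the membrane lipid PIP2 into diacylglycerol and IP3, which releases calcium. The gene lies on chr15:120660549-120695731 of Sscrofa11.1, plus strand. A second annotated gene of the same symbol lies just upstream, on chr15:120626538-120650826, and the 2 loci align to each other over 22962 bases in 4 blocks at 95.2 to 97.9% identity. A run of 100 unknown bases stands at position 120649292 between them. Exon 2 (56 of 56 bases) and exon 3 (159 of 159) are identical in both copies. The new isoform has 15 introns and joins exons 1 and 2 of the upstream copy to exon 3 of the downstream copy over an intron of 34026 bases, chr15:120632934-120666959. A second unannotated chain, also of 15 introns, takes exons 1 to 3 from the upstream copy and crosses at chr15:120633229-120668748. The junctions are shown because they let the chains be compared base by base, with the first exon in lower case and the next exon in capitals.
New isoform, exon 2 upstream to exon 3 downstream: ccctgctgcaaggccGGCTGCCCATCAATC
Annotated, exon 2 upstream to exon 3 upstream: ccctgctgcaaggccGGCTGCCCATCAATC
Annotated, exon 2 downstream to exon 3 downstream: ccctgctgcaaggccGGCTGCCCATCAATC
Second chain, exon 3 upstream to exon 4 downstream: gggccaagcccagctTCTCAATCTCCGATG
Annotated, exon 3 downstream to exon 4 downstream: gggccaagcccagctTCTCAATCTCCGATG
The first 3 lines are the same sequence, and so are the last 2. The inner exons of the new isoform and of the second chain, 2225 bases each, are identical at all 2225 positions, and in the 4 pigs that list both chains the whole spliced sequences were identical. A read cannot tell these chains apart. The longest reading frame of the new isoform has 765 codons, as many as the annotated coding sequence of the transcripts with 17 exons of the downstream copy. The annotated transcript that shares most introns with the new isoform, 13 of 15, has 16 exons and 772 codons.

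The new isoform of PLCD4 was listed in all 6 L pigs, at 30.8, 15.1, 15.6, 29.4, 16.4 and 14.2 FPKM, and in 2 H pigs, at 10.7 and 12.6. All L pigs stood above all H pigs. Over all 1463 new isoforms, 0.342% had all L pigs above all H pigs, 0.137% the reverse and 0.478% either, and limma called 3 of them (0.205%). Over all 12623 intron chains in at least 6 pigs, annotated ones included, 0.388% did not overlap. The choice of the 7 genes used this contrast. The second chain, of the same spliced sequence, was listed in 3 H pigs at 11.097, 24.4 and 23.7 FPKM and in 2 L pigs at 15.1 and 14.4. Added together, the 2 chains gave 0 to 36.3 FPKM in H and 15.6 to 30.8 in L, and the groups overlapped. The other 3 H pigs, H3, H4 and H5, held the joins in other transcripts, of 6 to 16 introns. When every transcript with the join before exon 3 was counted, all 12 pigs had it, at 7.96 to 25.2 FPKM in H (median 11.2) and 14.2 to 30.8 in L (median 16.0). When every transcript with either join was counted, the range was 21.4 to 51.9 FPKM in H (median 31.6) and 25.0 to 37.5 in L (median 29.4).

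The gene sum of PLCD4, the total FPKM of its transcripts, went the other way. It was 46.1, 47.2, 54.0, 52.6, 87.5 and 47.4 FPKM in the H pigs and 41.7, 30.2, 25.0, 37.5, 38.4 and 28.6 in the L pigs. All H pigs were above all L pigs, with means of 55.8 ± 15.9 and 33.6 ± 6.55 (SD, n = 6 each). Of 12405 genes, 0.306% had gene sums with all H pigs above all L pigs, 0.250% the reverse and 0.556% either way. A sum counts a gene once for each piece, and an H pig held on average 3.50 PLCD4 transcripts against 2.17 in an L pig. Weighted by the share of the annotated exonic bases that each transcript covers, the level was 26.3 ± 6.02 FPKM in H and 20.02 ± 3.28 in L, with ranges of 19.5 to 36.5 and 15.4 to 24.6 that overlapped. By this measure the groups did not overlap in 0.854% of 10416 genes.

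GPRC5C, an orphan receptor of the class C family that is known as a retinoic acid-induced protein, lies on chr12:6698598-6715279, minus strand. Its new isoform has 4 introns and leaves out an exon of 264 coding bases, by an intron of 4087 bases at chr12:6710901-6714987 whose ends are each a known splice site of the annotated transcript. The left-out stretch is a multiple of 3 bases. The annotated coding sequence starts at the first base of the transcript without a start codon, and read in that frame the new isoform has no stop for 566 codons against 654 in the annotated transcript. The junction is shown to mark what was joined, with the first exon in lower case.
GPRC5C, first exon to the exon after the one left out: gtccgcagcccggagCTGGGAAGAGGTCCC
The isoform was listed in all 6 H pigs, at 3.95, 6.44, 1.28, 2.62, 1.23 and 3.08 FPKM, and in 1 L pig, L6, at 3.39. L6 was above 4 of the 6 H pigs. The junction itself was in all 12 pigs. The other 5 L pigs held all 4 introns of the isoform in longer transcripts, with a further intron towards the 5′ end, towards the 3′ end, or both. Counted over all transcripts with the junction, the level was 1.14 to 14.5 FPKM over all L pigs (median 1.77) against 1.23 to 7.96 in H (median 2.85). Its highest value was that of L2, whose transcript begins at another first exon over the intron chr12:6715338-6724546. The annotated chain of 5 introns was listed in 3 L pigs at 2.87 to 3.07 FPKM and in 1 H pig at 0.661. The gene sum was 3.74 to 14.8 FPKM in H (mean 9.02 ± 4.08, SD, n = 6) and 3.39 to 18.8 in L (8.36 ± 5.48). Without H4 and L3 its mean log2 difference, H minus L, went from 0.17 to -0.20.

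SAR1B is a small GTPase that starts the assembly of the COPII coat, which buds vesicles from the endoplasmic reticulum, and is needed to export large lipid particles in the gut. The gene lies on chr2:136848843-136874248, minus strand. The new isoform keeps the 6 annotated introns and the whole reading frame of 198 codons, and adds 2 introns after it. The first begins 51 bases after the stop codon, spans chr2:136844451-136849328 (4878 bases) and has GT and AG at its ends on the minus strand. The second, chr2:136842073-136844272 (2200 bases), does not. Its ends are shown on both strands, with the outer 2 intron bases in capitals.
Second intron, start on the SAR1B strand: cagtattgggCTgaatgcag
Second intron, end on the SAR1B strand: gctctcttACctgatcctat
Second intron, start on the SEC24A strand: ataggatcagGTaagagagc
Second intron, end on the SEC24A strand: ctgcattcAGcccaatactg
On the plus strand the intron begins with GT and ends with AG, and it begins 1 base after an exon of SEC24A, chr2:136841998-136842072. SEC24A, a cargo-binding subunit of the COPII coat, overlaps SAR1B from chr2:136833399 to 136952181 on the opposite strand. No transcript assigned to SEC24A on its own strand had an intron from this exon in any of the 12 pigs. The last exon of the new isoform, which begins at the end of the SEC24A exon, was 1 base long in 4 of the 8 pigs that list it and at most 6 bases long in 7.

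The new isoform of SAR1B was listed in all 6 H pigs, at 101, 48.6, 59.2, 79.2, 79.4 and 49.1 FPKM, and in 2 L pigs, at 28.7 and 72.2. L5, at 72.2, lay among the H pigs, so the groups overlapped. The intron on the SEC24A strand was in these 8 pigs alone, and the intron with GT and AG on the SAR1B strand in 9, with L2 as the ninth. Over all transcripts with this last intron, the level was 48.6 to 101 FPKM in H. It was 65.0, 43.7 and 72.2 in L2, L4 and L5 and 0 in the other L pigs, so the groups overlapped. The annotated chain of 6 introns was the reverse of the new isoform. It was at 128, 21.2, 93.3 and 154 FPKM in 4 L pigs and at 5.38 to 15.5 in 4 H pigs. In L1, L3 and L6 it was the single SAR1B transcript. The gene sum did not separate the groups, with 66.6 to 128 FPKM in H (mean 94.0 ± 20.9, SD, n = 6) and 63.1 to 154 in L (103 ± 32.6). New and annotated chain thus share 6 introns and the coding sequence, and differ after it in the 2 further introns and in the 3′ end. In L1, L3 and L6 the annotated chain ended at chr2:136849030 to 136849044. In L2 and the H pigs that list it, the annotated chain ran on to chr2:136843504 to 136844062, with the first added intron of the new isoform left in.

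MOSPD3 carries a motile sperm domain, the fold by which the VAP proteins hold the endoplasmic reticulum to other membranes. It lies on chr3:8531745-8533828, plus strand. The new isoform has the 4 annotated introns, the whole frame of 235 codons, and an extra first exon joined over an intron of 354 bases, chr3:8531384-8531737. That intron begins with GC and ends with AG. The splice sites are shown with these bases in capitals.
MOSPD3 first intron, start: ggcggctgcgGCaagtagag
MOSPD3 first intron, end: cgcccctcAGctctatcctc
The chain was listed in all 6 L pigs, at 2.34, 2.14, 1.19, 3.33, 1.21 and 0.715 FPKM, and in 2 H pigs, at 0.797 and 0.969. The lowest L pig was below both of these H pigs. Its first intron was also in another chain of 5 introns, with a second unannotated intron, in 3 more H pigs, so that H1 alone lacked it, and the level of all transcripts with it was 0 to 0.969 FPKM in H (median 0.824) and 0.715 to 3.33 in L (median 1.67). The annotated chain was listed in 5 H pigs, at 2.25 to 4.20 FPKM, and in 2 L pigs, at 1.82 and 2.73. Of the 7 MOSPD3 chains 1 was in all 12 pigs, a new one of 4 introns, at 0.983 to 2.11 FPKM in H and 0.966 to 2.59 in L. A further new chain of 5 introns was in 3 H pigs, at 0.874 to 3.76 FPKM, and in 3 L pigs, at 0.890 to 1.87. The gene sum was the steadiest of the 7 genes, at 6.60 ± 0.496 FPKM in H and 6.25 ± 0.968 in L (SD, n = 6 each).

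**Figure D2:**
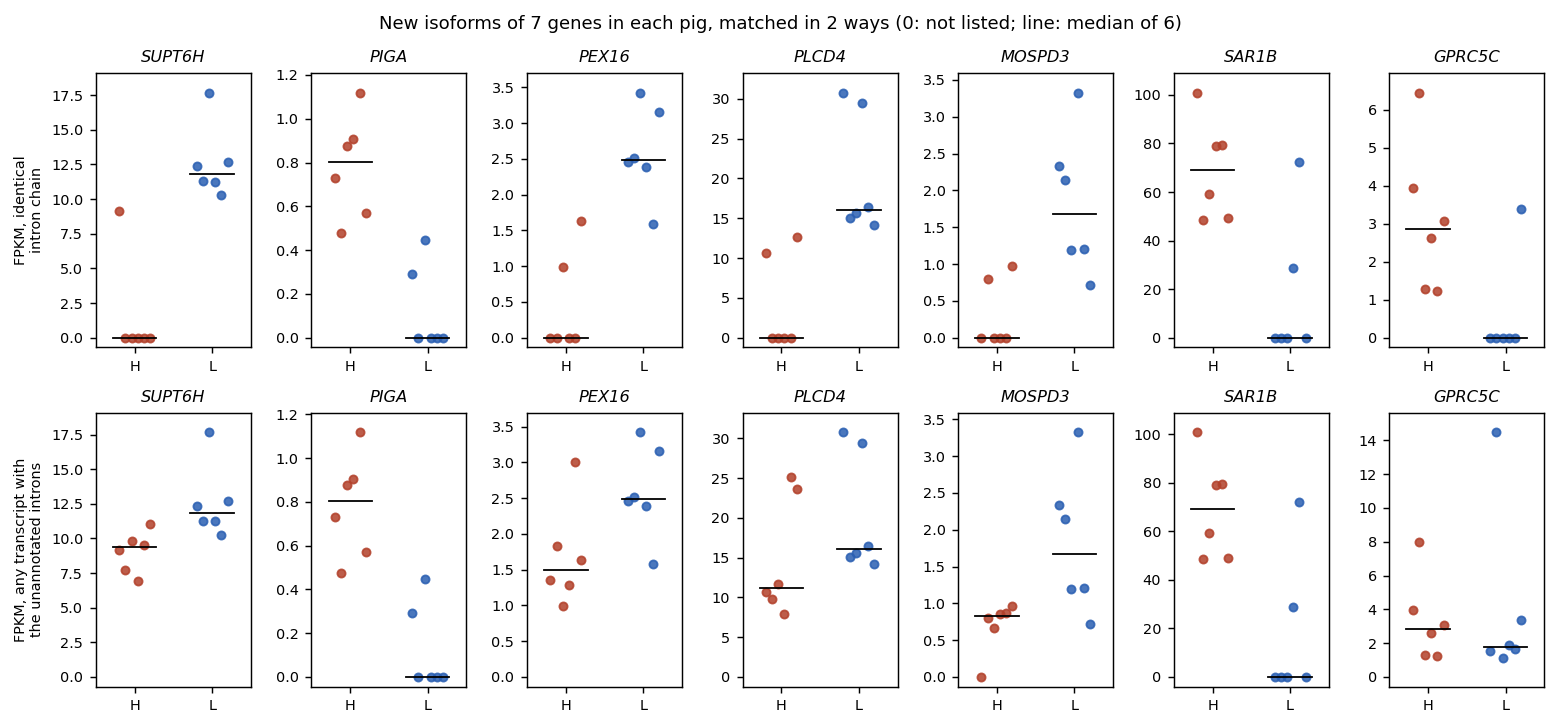
FPKM of the 7 new isoforms in each H (red) and L (blue) pig, with the median of 6 pigs as a line. The upper row counts the identical intron chain, with 0 where it was not listed. The lower row counts every transcript of the gene that holds the unannotated introns, which for SAR1B means both of them. There GPRC5C, PEX16, PLCD4 and SUPT6H have a value above 0 in all 12 pigs, while PIGA and SAR1B have the same values as in the upper row.

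PEX16 is a peroxin that brings membrane proteins into new peroxisomes, the organelles that shorten very long fatty acids. It lies on chr2:16555045-16560777, plus strand. The new isoform has 10 introns, 9 of them annotated, and its first intron starts within the annotated first exon, at chr2:16555175-16555455 in place of chr2:16555249-16555455. Both junctions are shown to set the ends of the first exon (lower case) side by side.
PEX16, new: cctccgctaccaggaGTCGTTTCGCCGATT
PEX16, annotated: gttacctgctggcagGTCGTTTCGCCGATT
From the annotated start codon the frame of the new isoform ends after 29 codons. Its longest frame, from a later start codon to the annotated stop, has 241 codons against 336 in the annotated transcript. The new isoform was listed in all 6 L pigs, at 2.46, 2.52, 3.42, 2.39, 1.59 and 3.16 FPKM, and in 2 H pigs, H3 at 0.994 and H6 at 1.63. H6 stood above L5 and the groups overlapped. The new first intron was listed in all 12 pigs, at 0.994 to 3.00 FPKM in H (median 1.49) and 1.59 to 3.42 in L (median 2.49). Of the 4 H pigs without the chain, 3 listed all 10 of its introns, in 2 or more transcripts or in a longer one, and 1 listed 9. The annotated chain was listed in 3 H pigs, at 1.42 to 3.44 FPKM, and in 5 L pigs, at 1.53 to 2.22. The gene sum was 4.00 ± 1.57 FPKM in H and 4.49 ± 0.854 in L (SD, n = 6 each), and the weighted level 3.16 ± 0.694 and 4.17 ± 0.736, both with overlapping groups.

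PIGA is the catalytic subunit of the enzyme that makes the first intermediate of the GPI anchor, which holds many proteins to the cell surface. The gene lies on chrX:11871746-11886519, minus strand, with 6 annotated transcripts. The new isoform has 2 introns and joins its first exon straight to the exon before the last, over chrX:11877712-11886392 (8681 bases), both of whose ends are annotated splice sites.
PIGA, first exon to the exon before the last: ccatgggactagccgGTTGTAAGTACCAGG
The annotated start codon is in the part left out, and the longest reading frame is 76 codons against 485 in the nearest annotated transcript. It was listed in all 6 H pigs, at 0.729, 0.476, 0.876, 0.906, 1.12 and 0.569 FPKM, and in 2 L pigs, L1 at 0.291 and L3 at 0.445. All H pigs were above all L pigs, as in 0.137% of the 1463 new isoforms, and PIGA was chosen by this contrast. The lowest H and highest L pig were 0.476 and 0.445. The coverage behind these values was 2.72 to 11.0 reads per base, and in the other 4 L pigs no transcript had the intron. The annotated chain of 5 introns was listed in 5 L pigs, at 0.565 to 1.10 FPKM, and in 2 H pigs, at 0.366 and 0.789. A chain of 2 introns that is an unbroken part of an annotated one was in 5 L pigs, at 0.365 to 0.920 FPKM. It was in 1 H pig, at 0.378. The share of the PIGA sum in the new isoform was 19.0 to 34.6% in H and 0 to 19.0% in L, with H2 and L3 both at 19.0%. The gene sum was 2.60 ± 0.594 FPKM in H and 2.30 ± 0.722 in L (SD, n = 6 each).

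SUPT6H is a histone chaperone that travels with RNA polymerase II during elongation. It lies on chr12:44916716-44940732, plus strand, with 1 annotated transcript. The new isoform has all 35 annotated introns and an extra first exon, joined over an intron of 9447 bases, chr12:44907265-44916711, with GT and AG at its ends.
SUPT6H, new first exon to the annotated first exon: agcggcgggactgagTCATCTCCAGGCAGG
The annotated coding sequence is given as 1725 codons. In the isoform read from the genome sequence, the frame from the annotated start codon ends after 11 codons, and the longest frame, of 1603 codons, starts at a later start codon and has the annotated stop. The annotated exons read in the same way also gave 1603. The isoform of 36 introns was the single SUPT6H transcript in all 6 L pigs, at 12.4, 11.3, 17.7, 11.2, 10.3 and 12.7 FPKM, and in H1, at 9.14. All L pigs were above all H pigs, as in 0.342% of the 1463 new isoforms, and SUPT6H was chosen by this contrast.

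The other 5 H pigs did not lack this structure. Each listed the extra first exon and 35 of the 36 introns. In H3, H5 and H6 the gene was in 2 pieces, of 16 and of 19 introns, which stop and start at, in or beside the same annotated intron, chr12:44924641-44924986 (346 bases). In H2 the pieces had 31 and 4 or 5 introns and the intron between them was missing. In H4 a transcript of 35 introns kept an annotated intron of 75 bases. Counted over all transcripts with the new first intron, the level was 6.94 to 11.0 FPKM in H (median 9.35) and 10.3 to 17.7 in L (median 11.8), with 1 H pig, H6, above L5. The gene sum was 17.3 ± 6.60 FPKM in H and 12.6 ± 2.64 in L, and the weighted level 9.97 ± 1.83 and 12.5 ± 2.66 (SD, n = 6 each). The 2 measures put the groups in opposite order, and in both the groups overlapped.

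**Figure D3:**
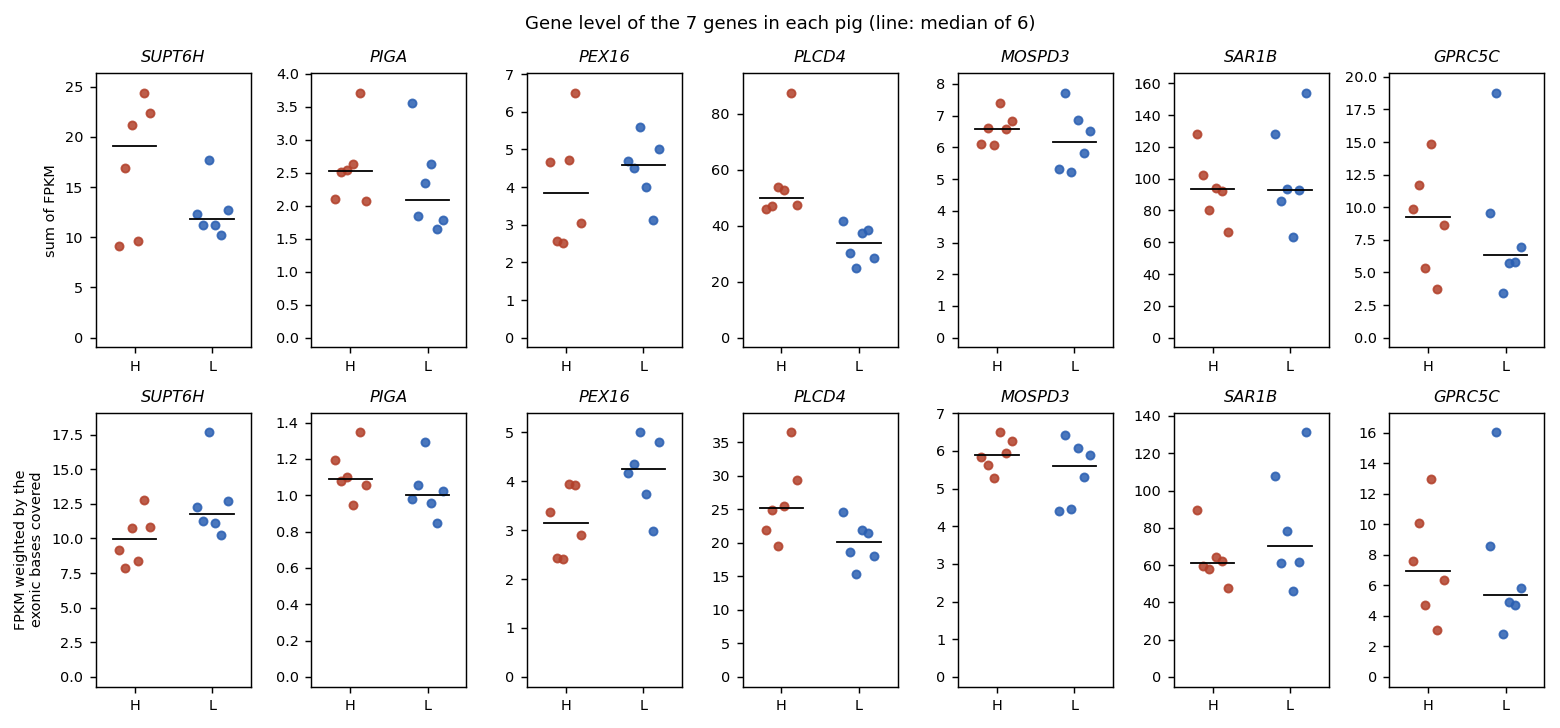
Gene level of the 7 genes in each H (red) and L (blue) pig in FPKM, with the median of 6 pigs as a line. The upper row is the sum over all transcripts of a gene and the lower row weights each transcript by the annotated exonic bases it covers. PLCD4 sums do not overlap between the groups, and its weighted levels do.

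Taken by pig, 30 of the 84 pairs of a pig and a new isoform lacked the whole chain. In 21 of the 30 (70.0%) the unannotated introns of the isoform were listed all the same in other transcripts of that pig, and in 15 (50.0%) every intron was. Over the 1250 new isoforms in at least 6 pigs that have an unannotated intron, the shares were 44.2% and 28.2% of 4307 pairs. The pairs that did not list all unannotated introns of the isoform were of PIGA (4 L pigs), SAR1B (4 L pigs) and MOSPD3 (1 H pig). Among the SAR1B pairs, L2 listed the intron with GT and AG on the SAR1B strand but not the other. For SUPT6H, PEX16, PLCD4 and GPRC5C no pig lacked the unannotated intron.

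**Figure D4:**
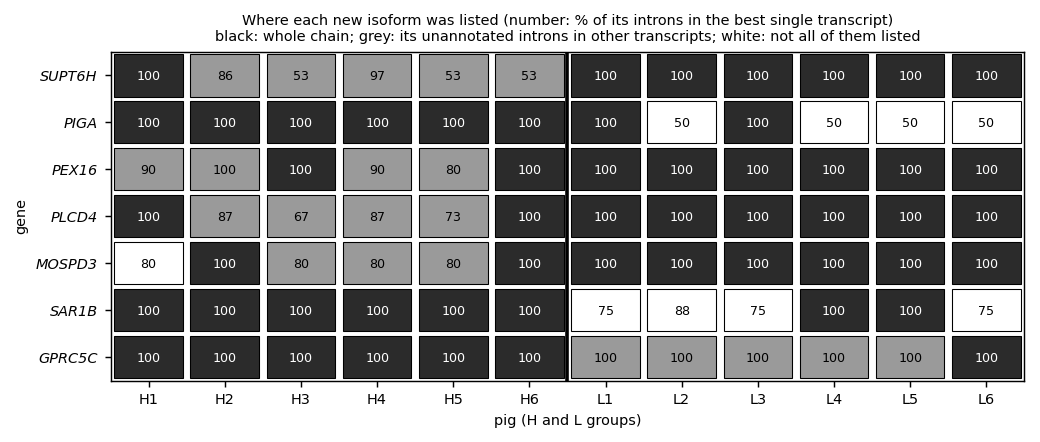
Each cell is a gene in a pig, black where the whole chain of the new isoform was listed, grey where its unannotated introns were listed in other transcripts, and white where they were not all listed. The number is the percentage of the introns of the isoform held by the best single transcript, which falls to 53 for SUPT6H in H3, H5 and H6.

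As a share of the gene sum of each pig, the new isoform made up 100% of SUPT6H in the L pigs and in H1 and 0% in the other H pigs. It took 42.8 to 78.4% of PLCD4 in L and 0 to 26.7% in H. These PLCD4 shares did not overlap, but they use the FPKM by which the gene was chosen and a sum that counts each piece. How often such shares do not overlap over all new isoforms was not counted. For PEX16 the shares were 50.9 to 63.1% in L and 0 to 53.5% in H, and for MOSPD3 10.9 to 48.4% in L and 0 to 14.2% in H. In the other direction SAR1B had 47.6 to 85.8% in H and 0 to 77.9% in L, and GPRC5C 17.7 to 55.0% in H and 0 to 48.6% in L. Where they were listed, the isoforms were covered by 292 to 967 reads per base in SAR1B, 103 to 305 in PLCD4, 88.4 to 149 in SUPT6H, 10.5 to 48.7 in GPRC5C, 9.42 to 35.5 in PEX16 and 5.92 to 33.6 in MOSPD3. Coverage is not a count of molecules, so these depths have no interval.

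Most structures of these genes were not shared between pigs. GPRC5C had 20 distinct chains over the 12 pigs, PLCD4 19, PIGA 18, PEX16 12, SUPT6H 8, MOSPD3 7 and SAR1B 6. Of these, 11, 15, 12, 10, 5, 0 and 2 in the same order were listed in 1 pig alone. MOSPD3, the shortest of the genes, was the one with no chain of a single pig. For SUPT6H and PLCD4 no pig listed an annotated chain whole.

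The genes that work beside the 7 were read from 7 lists by role, 136 genes, of which 126 had a transcript and 123 were tested with limma in the fit of 12405 genes. The test called 0 of the 123 (0.00%) at an adjusted p under 0.1, against 1 of all 12405 (0.00806%), and 7 of the 123 (5.69%) had an unadjusted p under 0.05, against 903 of all 12405 (7.28%). Of 14 tested phospholipases C and IP3 receptors, 9 had a higher mean in H, with a median log2 difference of 0.11. PLCD1 was at 12.9 ± 2.82 FPKM in H and 15.8 ± 5.38 in L, and PLCD3 at 2.33 ± 0.577 and 1.69 ± 0.705. Of the receptors related to GPRC5C, 2 of 7 were tested. GPRC5B had 14.9 ± 4.61 FPKM in H and 11.4 ± 3.96 in L, while GPRC5A and GPRC5D were under the minimum of 0.5 FPKM in both groups.

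Of 21 COPII genes 14 had a lower mean in H, with a median of -0.12. SAR1A, the paralog of SAR1B, was at 22.5 ± 1.75 FPKM in H and 26.3 ± 2.13 in L (log2 difference -0.22, SE 0.10, adjusted p = 0.681 in limma). TFG, which organises COPII exit sites, was at 18.0 ± 3.81 and 23.7 ± 2.68 (-0.40, SE 0.15, adjusted p = 0.634). PREB, the exchange factor of SAR1, was at 19.9 ± 4.63 and 15.9 ± 5.97, and the coat subunits SEC23A at 7.01 ± 1.37 and 8.26 ± 1.29, SEC23B at 1.84 ± 0.459 and 1.71 ± 0.468, and SEC31A at 12.2 ± 1.03 and 14.0 ± 3.15. SEC24C was listed in 5 of the 12 pigs. The VAP and contact site genes had a median of 0.00. VAPA was at 341 ± 79.6 FPKM in H and 348 ± 96.4 in L, VAPB at 35.3 ± 4.79 and 36.1 ± 3.23, MOSPD1 at 13.2 ± 1.39 and 14.3 ± 6.02 and MOSPD2 at 1.85 ± 0.631 and 1.23 ± 0.214.

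Of 15 peroxins 10 had a higher mean in H, with a median of 0.04. The partners of PEX16 in membrane protein import were at 3.36 ± 1.34 FPKM in H and 2.70 ± 0.376 in L (PEX3) and at 51.4 ± 5.79 and 56.9 ± 24.1 (PEX19). The GPI synthesis list of 27 genes had a median of -0.01. The partners of PIGA in its enzyme were at 46.6 ± 6.12 and 48.6 ± 6.07 FPKM (PIGC), 2.88 ± 0.747 and 2.97 ± 0.502 (PIGH), 8.46 ± 2.34 and 7.10 ± 2.00 (PIGQ), and 16.1 ± 8.10 and 19.98 ± 4.48 (PIGP, in which 1 pig was at 0). Of 23 elongation genes 14 had a higher mean in H, with a median of 0.09. IWS1, which binds SUPT6H, was at 11.0 ± 0.618 and 10.4 ± 1.91 FPKM, and the DSIF subunits at 19.4 ± 9.78 and 26.4 ± 8.48 (SUPT5H) and at 2.72 ± 0.280 and 10.1 ± 9.56 (SUPT4H1, adjusted p = 0.658 in limma). SUPT4H1 was at 26.9, 11.0 and 14.0 FPKM in L1, L2 and L3 and at 2.75 to 3.06 in the other L pigs. Weighted by the exonic bases covered, its means were 2.52 in H and 4.18 in L. The values with ± are means ± SD of 6 pigs, and the median over all 12405 genes was 0.00.

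**Figure D5:**
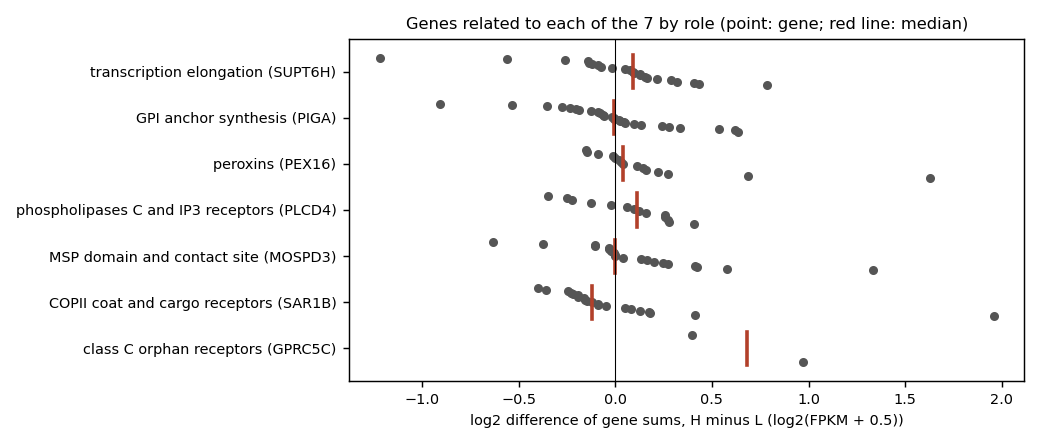
Log2 difference, H minus L, of the gene sums of the tested genes in each of 7 lists by role (1 point per gene, red line for the median). The medians lie between -0.12 and 0.11 except in the list with 2 tested receptors.

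The genes whose sums followed the 7 most closely over the 12 pigs, on the log2 scale, were SYNJ2 for SUPT6H (Pearson r = 0.93), EBP for PIGA (0.88), RAB35 for PEX16 (0.88), TACC1 for PLCD4 (0.92), ZNF775 for MOSPD3 (0.94), CHD9 for SAR1B (0.85) and LOC100517161 for GPRC5C (0.92). Each is the highest of 12404 values over the same 12 libraries and is given as a description. In order of their sums, SAR1B and PLCD4 were the most abundant of the 7 in each group, SUPT6H followed, GPRC5C, MOSPD3 and PEX16 lay between 4.00 and 9.02 FPKM, and PIGA was the lowest. The range of GPRC5C over the pigs overlapped those of SUPT6H, MOSPD3 and PEX16.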

How the data were processed

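Reads of each pig had been trimmed, aligned to Sscrofa11.1 with TopHat2 2.1.0 and assembled 1 library at a time with Cufflinks 2.2.1, and the authors deposited the exons of every transcript with its FPKM and coverage. Their annotation was that of Ensembl, whereas new here means absent from the RefSeq annotation of the build. Whether the libraries keep strand was not stated, and transcripts of a single exon carry no strand. Gaps under 10 bases between exons were joined, since the annotation holds 3445 of them, among others in SUPT6H and PEX16. Transcripts went to the gene of their strand with most exonic bases in common. Of the 2 loci named PLCD4 the downstream one was used, as the upstream one received no transcript.

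Median ratios over genes listed in every pig were used to scale the FPKM. The fit on log2(FPKM + 0.5) was made with limma (3.58.1, R 4.3.3; variance trend, two-sided, Benjamini-Hochberg, threshold 0.1). It took genes that reached a mean of 0.5 FPKM in a group, or new isoforms in at least 6 libraries, and was tested on simulated data. Each library is a separate animal. Sequences were read from the RefSeq genome of the same build with Python 3.11.15, and the 2 copies of PLCD4 were aligned with blastn 2.17.0+.

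The 7 genes, the lists by role and the tests were chosen with earlier results of these data known. Named were the 7 genes, their chains in at least 6 pigs and others with the same introns, fixed relatives of each by role, and the most similar gene. TFG, further chains in under 6 pigs, and the marker genes fall outside this rule and were named after their values were seen. The alternatives were other pseudocounts, filters, scalings and matches, a replicate block, and pigs left out. Gaps left as listed and the weighted gene level were added after seeing the data.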

Additional observations from a re-analysis of the deposited data

Results flagged for a closer look

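Values in 42 groups of 6 pigs were taken to look for a pig that stands apart from the other 5 of its group. The measure was a gap to the nearest pig that is large for the range of the group, by Dixon's test. Groups with 1 pig above 0 were not checked, namely the new isoform of SUPT6H in H and of GPRC5C in L. In the other groups 5 values were marked, and chance marks a value in about 1 group in 20. That rate is for normally distributed values, which groups with several pigs at 0 are not. L3 had 17.7 FPKM of SUPT6H, next to 12.7 in the nearest L pig. This value is the new isoform, the gene sum and the weighted level at once, since the gene has a single transcript there. H5 had a PIGA sum of 3.71 FPKM, next to 2.63. H5 also had a PLCD4 sum of 87.5 FPKM, next to 54.0.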

How the results depend on the processing

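The differences of the 7 genes are given here as the mean log2 difference, H minus L, with no test. On this scale all 56 alternatives for the new isoforms kept the sign, and 37 moved by less than the SD between pigs. The isoforms were chosen by this contrast and most alternatives rescale the same values, so the kept sign is no support for a difference. As identical chains the differences were -3.98 for SUPT6H, 1.07 for PIGA, -1.99 for PEX16, -3.77 for PLCD4, -1.62 for MOSPD3, 4.90 for SAR1B and 2.18 for GPRC5C. Counting all transcripts with the unannotated introns moved them to -0.45 for SUPT6H, -0.53 for PEX16, -0.50 for PLCD4, -0.93 for MOSPD3 (within the SD between pigs) and 0.062 for GPRC5C. Counting those that contain the chain or are part of it gave -1.10 for SUPT6H, -1.15 for PEX16, -1.32 for PLCD4 and 0.062 for GPRC5C. These matches take in the pieces that an identical chain leaves out. For GPRC5C the plain means over all transcripts with the junction had the other order, at 3.35 FPKM in H and 4.02 in L. With a pseudocount of 0.1 the differences grew to -5.88 for SUPT6H, 2.36 for PIGA, -3.45 for PEX16, -3.01 for MOSPD3 and 3.92 for GPRC5C, and with 1 that of PIGA was 0.67, since pigs at 0 enter through the pseudocount. As a share of the gene sum they were -6.38 for SUPT6H, 4.33 for PIGA, -4.67 for PEX16, -4.14 for MOSPD3 and 4.93 for GPRC5C.

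Of 47 alternatives for the gene sums 43 kept the sign, and those that did not were SUPT6H weighted, PIGA and GPRC5C with annotated chains alone, and GPRC5C without H4 and L3 (from 0.17 to -0.20). Weighting by the exonic bases covered turned SUPT6H from 0.36 to -0.31 and took PLCD4 from 0.71 to 0.37. Annotated chains alone gave -1.04 for PIGA, -0.70 for PEX16, 1.53 for MOSPD3, -1.88 for SAR1B and -1.20 for GPRC5C, and no value for SUPT6H and PLCD4, where no pig lists one.

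In limma the count of genes called over all gene sums was 1, and it was 0 with a minimum of 1 FPKM, 2 without a variance trend and 1 to 3 with single pigs left out. The count of new isoforms called was 3, and it was 0 with a minimum of 4 or of 8 libraries, 7 with all intron chains, 0 without H4 and L3, and 0 to 4 with single pigs left out (0 without H2 or without H5, 1 without H4, L1 or L6). The cause was not tested. The related genes stayed at 0 under every alternative run.

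The individual numbers of H and L pigs share only a label, with correlations of deviations between same-numbered pigs of -0.08 to 0.06. With the number as a replicate block, 0 gene sums, 0 new isoforms and 0 related genes were called.

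The lowest coverage behind a listed new isoform was 2.72 reads per base, for PIGA, and whether depth limited the listing was not tested.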
